A study of Mus musculus with 18 samples.

Results

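The guanylate-binding proteins (GBPs) are large GTPases that mammalian cells make in response to interferons. The genes examined were Gbp2, Gbp3, Gbp4, Gbp5, Gbp6, Gbp7 and Gbp9, chosen by symbol from a table of 16248 genes measured in endothelial cells (ECs). Of these 7 genes, 6 had a row in the table and 1, Gbp6, had none and was not analysed here. All 6 listed genes passed the filter on low values (at least 1 FPKM in at least 3 libraries), so none of the listed members is left out of any count.

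The libraries were bulk RNA-seq of ECs sorted from FVB mice, 3 h after an injection of phosphate-buffered saline (PBS) or of cGAMP, a cyclic dinucleotide that activates the innate immune sensor STING. The sources were the normal mammary fat pad (normal ECs, wild-type mice), tumours of MMTV-PyMT mice, in which a mammary promoter drives a viral oncogene so that tumours arise spontaneously, and tumours that grew after cultured MMTV-PyMT tumour cells were placed into the fat pad of wild-type FVB mice (implanted). There were 6 groups of 3 libraries each, and the labels give no age. The study states 3 mice per group over 3 independent experiments without saying which library came from which experiment. The p-values therefore measure the spread between libraries of a group, and for each gene this spread was pooled over all 6 groups. The columns of the normal group name only the treatment and were assigned by elimination. Values are FPKM, read numbers divided by gene length and a library factor, so levels of different genes can be set side by side. Whole reads recovered from them numbered 9064609 to 12033893 per library. The library factor was 0.75 to 1.17 times these reads, lowest in implanted cGAMP 1 and highest in normal PBS 1. Implanted values under cGAMP thus stand higher against normal ones than after scaling by total reads, which was tried as another setting.

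Interferons act through receptors and the kinases Jak1, Jak2 and Tyk2 on transcription factors, among them Stat2 and Irf9, which act in a complex at a DNA element named ISRE. A second element of interferon-induced promoters is named GAS. Many Gbp genes are induced through such elements and through the factor Irf1. GBP proteins assemble on the membranes of intracellular microbes and of the vacuoles that enclose them, and several help to start inflammasomes, the complexes that activate inflammatory caspases. In blood vessels a human relative, GBP1, is known as a marker of ECs exposed to inflammatory cytokines.

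The mouse Gbp genes lie in 2 clusters (GENCODE M21 on GRCm38, where the 7 members, Gbp2b and Gbp10 are protein-coding). On the plus strand of chromosome 3 follow Gbp5 (ENSMUSG00000105504.4, 142493978 to 142522344), Gbp7 (ENSMUSG00000040253.15, 142530342 to 142550149), Gbp3 (ENSMUSG00000028268.14, 142560026 to 142573209), the relative Gbp2b and Gbp2 (ENSMUSG00000028270.12, 142620602 to 142638008). On the minus strand of chromosome 5 lie Gbp9 (ENSMUSG00000029298.15, 105077630 to 105139539), Gbp4 (ENSMUSG00000079363.7, 105115767 to 105139586), the relative Gbp10 and Gbp6 (ENSMUSG00000104713.4, 105270702 to 105293698). Gbp4 and Gbp9 share 60 bp of exon on the same strand, and Gbp7 shares 637 bp with a processed pseudogene, Gm43802. The widest overlaps were those of Gbp10 (1792 bp) and Gbp6 (1726 bp) with the protein-coding gene Gm43302, also on the same strand. Reads of such near-identical or overlapping genes can be split or dropped by the counting, and whether it used the strand was not given in the sources used here, so single members are less certain than the family. The lowest number of recovered reads of any member in any library was 56 (Gbp5) and the highest 44465 (Gbp2).

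Promoter windows of 250 bases before the start site were at hand from RefSeq (GRCm38.p6) for the chromosome 3 members Gbp2, Gbp3, Gbp5 and Gbp7 and for Gbp2b. They were searched on both strands for the letters GAAANNGAAA (ISRE, read TTTCNNTTTC on the other strand) and TTCNNNGAA (GAS). These genes had 6 windows, since Gbp3 has a second RefSeq start site. The RefSeq starts are not always the GENCODE gene starts given above. The Gbp5 window, 142496684 to 142496933, lies inside the GENCODE gene. The ISRE letters of Gbp2, 142620604 to 142620613, lie just after its GENCODE start. Which start the ECs use was not tested. The ISRE letters were in 5 of the 6 windows, each time as TTTCNNTTTC on the plus strand, against 2.97% of 32817 windows, and not in the second window of Gbp3. Counted by gene, 5 of 5 held them, against 3.45% of 26994 genes. Only Gbp5 and Gbp7 of the 5 held the GAS letters, which occur in 7.01% of windows and 8.12% of genes. Neighbouring members of a gene family can share sequence by descent, so the 6 windows are not independent of each other, and a match of letters is not a binding site. The stretches are shown because all 4 of these members rose after cGAMP. All are read 5′ to 3′ on the plus strand of chromosome 3, with capitals marking the matched letters, and they lie at chr3:142620589-142620628 (Gbp2), chr3:142594695-142594734 (Gbp2b), chr3:142559984-142560029 (Gbp3), chr3:142496754-142496793 (Gbp5) and chr3:142530215-142530307 (Gbp7).
Gbp2: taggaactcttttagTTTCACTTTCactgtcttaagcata
Gbp2b: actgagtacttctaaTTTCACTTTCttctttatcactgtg
Gbp3: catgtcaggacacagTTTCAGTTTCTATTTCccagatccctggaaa
Gbp5: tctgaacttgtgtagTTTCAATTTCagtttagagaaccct
Gbp7: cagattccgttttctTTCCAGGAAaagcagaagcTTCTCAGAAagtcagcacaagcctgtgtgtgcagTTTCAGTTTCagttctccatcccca

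Relative to the RefSeq start site (for Gbp3 the first) the ISRE letters began at −59 in Gbp2, −137 in Gbp2b, −165 in Gbp5 and −53 in Gbp7. In Gbp3 a pair of overlapping matches began at −45 and −39, so that the letters TTTC occur 3 times in a row. In Gbp7 the GAS letters stood at −106 and −87, upstream of the ISRE letters. Gbp5 had its GAS letters at −245 and −52, the latter with the same 9 bases, TTCTCAGAA, as the second match of Gbp7.

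To ask how the family responded to the STING agonist, cGAMP was compared with PBS within each tissue. Log2 changes are differences of log2(FPKM + 1) from a limma fit over all 18 libraries, and a gene is called when its Benjamini-Hochberg adjusted p-value over 13983 tested genes is under 0.05 and its change at least 2-fold. Most of the family rose in every tissue. In MMTV-PyMT ECs 6 of 6 listed members were called higher, against 2.49% of all tested genes. In implanted ECs it was 6 of 6 against 6.13%, and in normal ECs 5 of 6 against 3.02%, the exception being Gbp9. The median log2 change of the 6 members was 2.28 (normal), 3.56 (MMTV-PyMT) and 2.55 (implanted), where the medians of all tested genes were −0.045, −0.037 and −0.014.

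**Figure D1:**
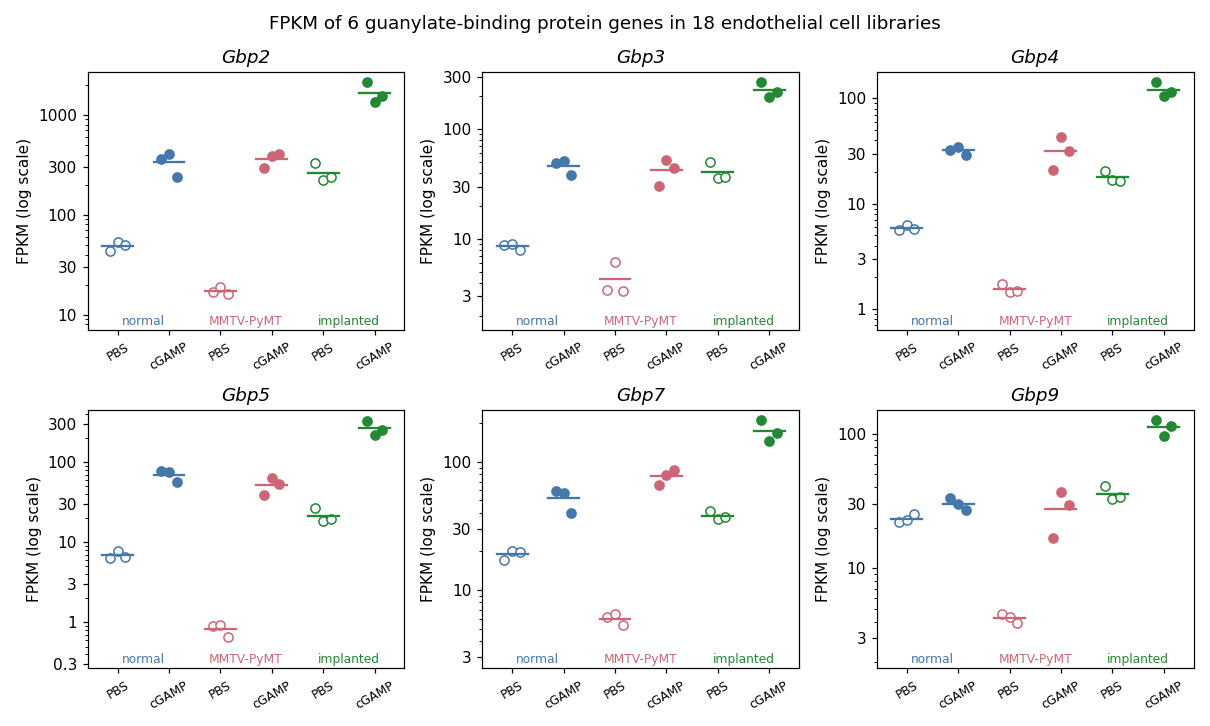
FPKM (log axis) of the 6 listed genes in each of 18 libraries, with open points for PBS, filled points for cGAMP and a bar at the mean of 3 libraries. For all 6 genes the lowest group is MMTV-PyMT ECs under PBS and the highest is implanted ECs under cGAMP, for example 17.4 and 1663 FPKM for Gbp2.

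Gbp2, a lipid-anchored member that is needed for control of the parasite Toxoplasma gondii in mice, was the most abundant member in every group. In normal ECs it was measured at 43.1, 53.2 and 49.7 FPKM under PBS and at 364, 409 and 237 FPKM under cGAMP. In MMTV-PyMT ECs the values were 17.0, 18.9 and 16.2 FPKM under PBS and 297, 383 and 409 FPKM under cGAMP. Implanted ECs had 327, 225 and 238 FPKM under PBS and 2114, 1345 and 1529 FPKM under cGAMP. No PBS library overlapped a cGAMP library of its tissue. The ratio of mean FPKM was 6.91 (normal), 20.9 (MMTV-PyMT) and 6.31 (implanted). The log2 changes were 2.73 ± 0.21, 4.30 ± 0.21 and 2.65 ± 0.21 (SE), and limma with Benjamini-Hochberg adjustment gave p-values of 1.08e-07, 3.01e-10 and 4.37e-08. PBS-treated implanted ECs lay in the same range as cGAMP-treated normal ECs, at 263 ± 55.7 and 337 ± 88.8 FPKM (SD, n = 3).

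Gbp5, also lipid-anchored and known for promoting assembly of the NLRP3 inflammasome, had the largest change of the members in each tissue. Under PBS it stood at 6.37, 7.75 and 6.66 FPKM in normal ECs, and under cGAMP at 77.0, 75.7 and 56.5 FPKM. In MMTV-PyMT ECs it went from 0.908, 0.931 and 0.664 FPKM to 39.3, 63.6 and 54.0 FPKM. In implanted ECs it went from 26.8, 18.3 and 19.8 FPKM to 328, 219 and 253 FPKM. All cGAMP libraries lay above all PBS libraries of their tissue, and in MMTV-PyMT ECs the lowest cGAMP library was 42.2 times the highest PBS library. Mean FPKM rose 10.1-fold (normal), 62.6-fold (MMTV-PyMT) and 12.3-fold (implanted). On the log2(FPKM + 1) scale, which understates changes from such low values, these were 3.15 ± 0.19, 4.84 ± 0.19 and 3.56 ± 0.19 (SE), and limma with Benjamini-Hochberg adjustment gave p-values of 7.33e-09, 1.60e-11 and 5.89e-10.

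Gbp3 lies in the chromosome 3 cluster and Gbp4 in that of chromosome 5, and both were called higher in all 3 tissues. Gbp3 was at 8.77, 9.01 and 7.97 FPKM in PBS-treated and at 49.4, 51.7 and 38.0 FPKM in cGAMP-treated normal ECs. In MMTV-PyMT ECs it was at 3.46, 6.16 and 3.35 FPKM and at 30.4, 52.7 and 44.2 FPKM, and in implanted ECs at 50.6, 36.1 and 36.6 FPKM and at 267, 196 and 220 FPKM. The 3 log2 changes of Gbp3 were 2.29, 3.03 and 2.44 (SE 0.21 each), and its groups did not overlap within a tissue. Gbp4 rose from 5.59, 6.33 and 5.79 to 32.7, 34.9 and 29.2 FPKM in normal ECs and from 1.72, 1.44 and 1.47 to 20.8, 42.9 and 31.9 FPKM in MMTV-PyMT ECs. In implanted ECs Gbp4 rose from 20.4, 16.9 and 16.3 to 142, 105 and 116 FPKM. Again no library overlapped, and the log2 changes of Gbp4 were 2.27, 3.64 and 2.69 (SE 0.18 each).

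Gbp7, a member that has been linked to defence against vacuolar pathogens, had a smaller log2 change in normal ECs than the other members except Gbp9. There it was at 17.1, 20.1 and 19.7 FPKM under PBS and at 59.0, 57.2 and 39.9 FPKM under cGAMP, a log2 change of 1.39 ± 0.15 (SE) with an adjusted p-value of 5.96e-06 (limma with Benjamini-Hochberg adjustment). In MMTV-PyMT ECs it went from 6.19, 6.46 and 5.34 to 66.3, 78.7 and 85.8 FPKM, a log2 change of 3.47 ± 0.15 (SE). In implanted ECs it went from 41.1, 36.1 and 36.9 to 210, 145 and 168 FPKM, a log2 change of 2.15 ± 0.15 (SE). Both tumour groups and the normal group had cGAMP libraries wholly above their PBS libraries.

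Gbp9 was the member whose call differed between tissues. In normal ECs its values were 21.9, 22.6 and 25.5 FPKM under PBS and 33.5, 29.9 and 27.2 FPKM under cGAMP. The lowest cGAMP library was 1.07 times the highest PBS library. The log2 change of 0.36 (95% confidence interval −0.06 to 0.77) did not pass, with an adjusted p-value of 0.178 (limma with Benjamini-Hochberg adjustment). The SE of this change, 0.20 as in the tumour groups, came from the spread pooled over all groups. In FPKM the SD was 1.88 (PBS) and 3.18 (cGAMP) in normal ECs, against 10.1 in cGAMP-treated MMTV-PyMT ECs (n = 3 each). In MMTV-PyMT ECs Gbp9 rose from 4.60, 4.33 and 3.88 to 16.8, 36.8 and 29.3 FPKM, by 2.38 ± 0.20 (SE) on the log2 scale. In implanted ECs it rose from 41.1, 32.7 and 33.6 to 126, 96.5 and 113 FPKM, by 1.62 ± 0.20 (SE). Its log2 change was the smallest of the 6 members in all 3 tissues. In the tumour groups limma with Benjamini-Hochberg adjustment gave p-values of 2.28e-07 (MMTV-PyMT) and 6.96e-06 (implanted).

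**Figure D2:**
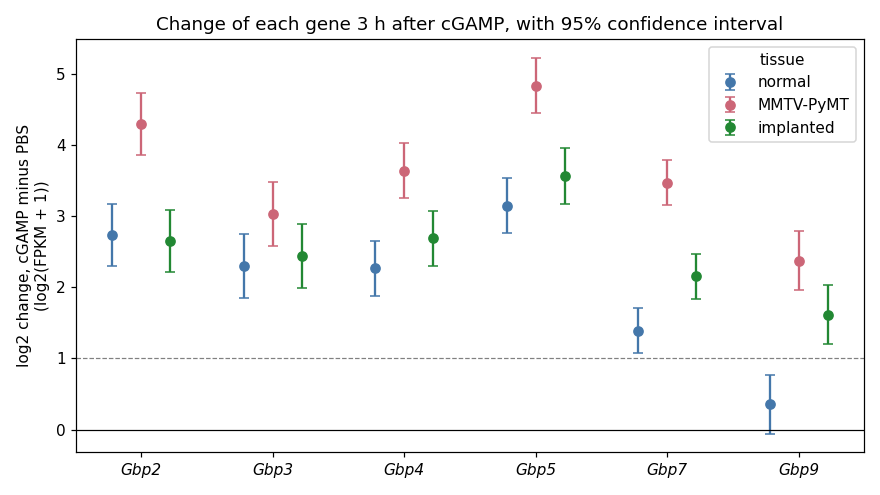
Log2 change of each gene, cGAMP minus PBS on the log2(FPKM + 1) scale, by tissue of origin of the ECs, with 95% confidence intervals from limma and a dashed line at 1 (2-fold). The MMTV-PyMT point is the highest of the 3 for each gene (4.84 for Gbp5), and only the interval of Gbp9 in normal ECs reaches 0.

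Whether the response differed between tissues was tested as a difference of the log2 changes. It was larger in MMTV-PyMT than in normal ECs for 5 of 6 members, against 1.28% of all tested genes called in that direction. These were Gbp2 (difference 1.56 ± 0.29), Gbp4 (1.37 ± 0.26), Gbp5 (1.69 ± 0.26), Gbp7 (2.08 ± 0.21) and Gbp9 (2.02 ± 0.28), each ± SE, with adjusted p-values from 0.000152 to 0.00559 (limma with Benjamini-Hochberg adjustment). For Gbp3 the difference was 0.74 (95% confidence interval 0.10 to 1.37) with an adjusted p-value of 0.142 (limma with Benjamini-Hochberg adjustment). A pseudocount of 5 in place of 1 removed the calls of Gbp4 and Gbp5 and left 3.

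Implanted ECs responded less than MMTV-PyMT ECs in 3 of 6 members, against 0.629% of all tested genes called lower. These were Gbp2 with a difference of −1.65 ± 0.29, Gbp5 with −1.27 ± 0.26 and Gbp7 with −1.32 ± 0.21 (SE), and limma with Benjamini-Hochberg adjustment gave p-values of 0.00172, 0.00473 and 0.000929. This count was the least stable of those given here. It was 1 (Gbp2) with a pseudocount of 5, where the difference of Gbp5 turned to 0.07, 6 after quantile normalization and 5 without MMTV-PyMT cGAMP replicate 1, the library with the lowest value of its group in all 6 members.

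Between implanted and normal ECs 1 of 6 members was called, Gbp9 with a larger response in implanted ECs, against 3.75% of all tested genes called higher and 0.937% called lower. The difference of Gbp9 was 1.26 ± 0.28 (SE) with an adjusted p-value of 0.00467 (limma with Benjamini-Hochberg adjustment), and it was not called after quantile normalization (0.81) or scaling by total reads (0.95). Gbp7 differed by 0.76 ± 0.21 (SE), under the 2-fold limit, with an adjusted p-value of 0.0197 (limma with Benjamini-Hochberg adjustment). The differences of Gbp2, Gbp3, Gbp4 and Gbp5 lay between −0.09 and 0.43, with adjusted p-values from 0.274 to 0.872 (limma with Benjamini-Hochberg adjustment). The signs of these 4 differences changed with the scaling or with single libraries left out.

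The level before the agonist was compared in PBS-treated ECs, which are the same libraries that enter the responses above. MMTV-PyMT ECs were lower than normal ECs in 5 of 6 members, against 7.67% of all tested genes. Gbp5 was 8.30-fold and Gbp9 5.46-fold lower by mean FPKM, with log2 changes of −2.11 and −2.21 (SE 0.19 and 0.20), and Gbp4, Gbp7 and Gbp2 had log2 changes of −1.44, −1.51 and −1.43. With a pseudocount of 5 the change of Gbp4 was −0.74, under the 2-fold limit, and 4 members were called. Gbp3 had a log2 change of −0.89 ± 0.21 (SE) with an adjusted p-value of 0.00215 (limma with Benjamini-Hochberg adjustment), under the 2-fold limit. It exceeded that limit, at −1.12, without MMTV-PyMT PBS replicate 2, in which Gbp3 stood at 6.16 FPKM against 3.46 and 3.35 in the other 2. No PBS library of MMTV-PyMT ECs overlapped a PBS library of normal ECs for any of the 6 members. The share of all tested genes without overlap was not counted, here or for the other pairs of groups.

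Implanted ECs under PBS were above both other tissues. Against normal ECs 4 of 6 members were called higher, against 5.74% of all tested genes, with log2 changes of 2.40 (Gbp2), 2.12 (Gbp3), 1.44 (Gbp4) and 1.5 (Gbp5). Gbp7 (0.97) and Gbp9 (0.59) passed the adjusted p-value, at 6.48e-05 and 0.0191 (limma with Benjamini-Hochberg adjustment), but not the 2-fold limit. Against MMTV-PyMT ECs all 6 listed members were called higher, against 4.28% of all tested genes, with log2 changes from 2.48 (Gbp7) to 3.83 (Gbp2). By mean FPKM, Gbp5 was 25.9-fold and Gbp2 15.1-fold higher in implanted than in MMTV-PyMT ECs. In bulk samples, more cells of one kind and more RNA per cell cannot be told apart.

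Under cGAMP the libraries of MMTV-PyMT and normal ECs overlapped for 5 of 6 members, and the share of all tested genes with such overlap was not counted. None of the 6 members was called between them (limma with Benjamini-Hochberg adjustment), where 10.4% of all tested genes were called in either direction. A count of 0 of 6 is near that share, so it does not set the family apart from other genes. Gbp5 and Gbp7 had an unadjusted p-value under 0.05, and Gbp7 passed the adjusted one without the 2-fold limit. Gbp2 was at 363 ± 59.1 FPKM in MMTV-PyMT and 337 ± 88.8 FPKM in normal ECs, and Gbp4 at 31.9 ± 11 and 32.3 ± 2.90 FPKM (SD, n = 3 each). Gbp7 was 1.48-fold higher in MMTV-PyMT ECs without overlap, with a log2 change of 0.57 (95% confidence interval 0.25 to 0.89) and an adjusted p-value of 0.00526 (limma with Benjamini-Hochberg adjustment). Gbp5 was at 52.3 ± 12.2 against 69.8 ± 11.5 FPKM (SD, n = 3), with a log2 change of −0.42 (95% confidence interval −0.82 to −0.03) and an adjusted p-value of 0.0671 (limma with Benjamini-Hochberg adjustment). The 95% confidence intervals of the other 4 lay between −0.60 and 0.57, inside the 2-fold limit.

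Implanted ECs stayed highest under cGAMP. All 6 listed members were called higher than in cGAMP-treated normal ECs, against 9.03% of all tested genes, with log2 changes from 1.73 (Gbp7) to 2.31 (Gbp2). Against cGAMP-treated MMTV-PyMT ECs it was again 6 of 6, against 7.02%, with log2 changes from 1.16 (Gbp7) to 2.42 (Gbp3). Gbp7 fell under the 2-fold limit there after quantile normalization (0.73) or scaling by total reads (0.82). In FPKM the rise from PBS to cGAMP was also widest in implanted ECs, where the mean of Gbp2 gained 1399 FPKM against 346 in MMTV-PyMT and 288 in normal ECs.

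The order of the 6 groups was nearly the same for all members. Implanted ECs under cGAMP came first and MMTV-PyMT ECs under PBS last, and neither overlapped its neighbour in that order for any listed member. Normal ECs under PBS were next to last each time. The groups in between were cGAMP-treated normal ECs, cGAMP-treated MMTV-PyMT ECs and PBS-treated implanted ECs, and cGAMP-treated normal ECs overlapped at least 1 of the other 2 in each gene. In Gbp4 and Gbp5, PBS-treated implanted ECs lay below both cGAMP groups and above PBS-treated normal ECs without overlapping either neighbour. Gbp9 differed in that PBS-treated implanted ECs, at 35.8 ± 4.63 FPKM (SD, n = 3), came second, above cGAMP-treated normal ECs at 30.2 ± 3.18 FPKM (SD, n = 3), with overlapping libraries. Gbp9 libraries of cGAMP-treated MMTV-PyMT ECs also overlapped those of PBS-treated normal ECs.

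Summed over the 6 genes, expression was 112 ± 8.46 FPKM in PBS-treated and 567 ± 122 FPKM in cGAMP-treated normal ECs (SD, n = 3). For MMTV-PyMT ECs the sums were 34.4 ± 3.67 and 594 ± 107 FPKM, and for implanted ECs 418 ± 77.9 and 2564 ± 558 FPKM (SD, n = 3). The make-up of that sum shifted with treatment. Gbp9 contributed 20.8 ± 1.59% in PBS-treated and 5.45 ± 0.90% in cGAMP-treated normal ECs, 12.5 ± 1.12% and 4.55 ± 1.01% in MMTV-PyMT ECs and 8.63 ± 0.46% and 4.42 ± 0.41% in implanted ECs (SD, n = 3). Gbp5 moved the other way, from 6.16 ± 0.37% to 12.4 ± 0.86%, from 2.42 ± 0.27% to 8.75 ± 0.79% and from 5.16 ± 0.13% to 10.4 ± 0.13% in the 3 tissues (SD, n = 3). Neither gene's share overlapped between PBS and cGAMP in any tissue. Gbp2 made up 43.2 ± 1.41% of the sum in PBS-treated normal ECs and 64.6 ± 1.47% in cGAMP-treated implanted ECs (SD, n = 3). These shares follow from the same values as the log2 changes and carry no test of their own.

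**Figure D3:**
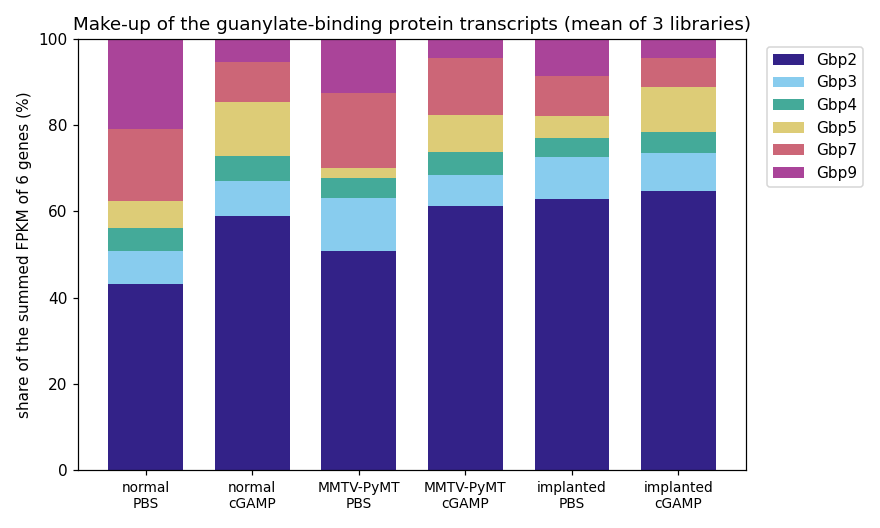
Share of each gene in the summed FPKM of the 6 listed genes (percent, mean of 3 libraries, stacked to 100) in the 6 groups. Gbp2 holds the largest part everywhere, and the part of Gbp9 is smaller under cGAMP than under PBS in each tissue (20.8% and 5.45% in normal ECs).

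Libraries of a group differed from each other in the family as a whole. In 11 of 18 libraries all 6 members lay on the same side of their group means. The widest deviations were those of MMTV-PyMT cGAMP replicate 1, with a mean of −0.41 over the 6 members (log2 scale), normal cGAMP replicate 3 with −0.28 and MMTV-PyMT cGAMP replicate 2 with 0.29. The deviations of 2 members correlated with Pearson's r from 0.64 (Gbp4 and Gbp7) to 0.94 (Gbp2 and Gbp7) over 18 libraries, for 15 pairs. Members of a library share its cells, depth and scaling, so these correlations are a description.

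**Figure D4:**
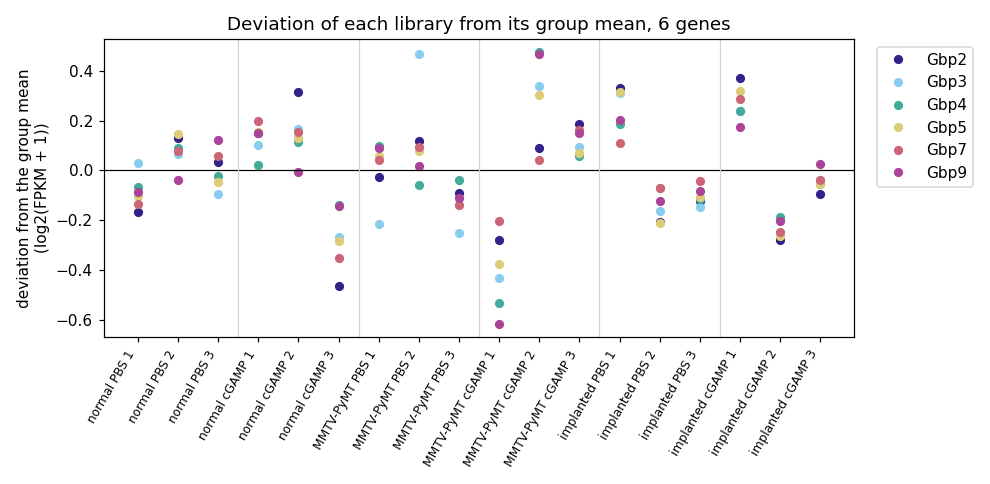
Deviation of each library from the mean of its group for the 6 listed genes, in log2(FPKM + 1), with vertical lines between groups of 3 libraries. Points of a library tend to lie together, as in MMTV-PyMT cGAMP 1, where all 6 are below 0.

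The relatives Gbp2b and Gbp10 were in the table, while Gbp8 and Gbp11 were not listed. Both rose in each tissue. Gbp10 went from 0.912 ± 0.413 to 5.82 ± 1.03 FPKM (normal), 0.252 ± 0.094 to 4.0 ± 1.33 FPKM (MMTV-PyMT) and 9.995 ± 2.28 to 56.7 ± 11.7 FPKM (implanted, all SD, n = 3), with log2 changes of 1.85, 1.96 and 2.40. Gbp2b, the neighbour of Gbp2, went from 0.641 ± 0.174 to 2.45 ± 0.27, from 0.131 ± 0.089 to 1.89 ± 0.34 and from 2.73 ± 1.22 to 22.7 ± 2.34 FPKM (SD, n = 3), with log2 changes of 1.08, 1.35 and 2.73. Its ratio of mean FPKM was 14.4 (MMTV-PyMT) and 8.32 (implanted), the opposite order to its log2 changes, and it rested on 2 to 7 reads per library in PBS-treated MMTV-PyMT ECs. For Gbp10 the ratios were 6.38 (normal), 15.9 (MMTV-PyMT) and 5.68 (implanted), so implanted ECs had its largest log2 change but its smallest ratio. Gbp10 had 9 to 15 reads per library in PBS-treated MMTV-PyMT ECs. The order of tissues for both genes thus depends on the scale. Levels of both were far below those of Gbp2 in every group.

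Genes that feed into Gbp expression were taken from a list of 14, all of which were tested. Called higher were 7 (normal), 8 (MMTV-PyMT) and 7 (implanted), with 0 called lower, against 3.02%, 2.49% and 6.13% of all tested genes called higher. The median log2 change of the list was 0.90, 1.33 and 1.16. Socs1, an inhibitor of the receptor kinases, had the largest change in normal (2.43 ± 0.18, SE) and implanted ECs (2.60 ± 0.18, SE), and Stat2, a subunit of the ISRE-binding complex, in MMTV-PyMT ECs (2.80 ± 0.13, SE). The lowest values were those of the kinase Tyk2 in normal ECs (−0.84 ± 0.11, SE) and of Ifnar1, a chain of the type I interferon receptor, in MMTV-PyMT (−0.03 ± 0.11, SE) and implanted ECs (−0.42 ± 0.11, SE). Tyk2 was at 5.08 ± 0.50 FPKM in PBS-treated and 2.40 ± 0.10 FPKM in cGAMP-treated normal ECs (SD, n = 3), with an adjusted p-value of 4.16e-05 (limma with Benjamini-Hochberg adjustment).

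In the immunity-related GTPases, a second family of interferon-induced GTPases that act with GBPs on vacuoles, 7 of 8 listed genes were tested and all 7 were called higher in each tissue. The shares of all tested genes called higher were 3.02% (normal), 2.49% (MMTV-PyMT) and 6.13% (implanted). The median log2 change over these 7 was 3.39 (normal), 4.57 (MMTV-PyMT) and 2.28 (implanted). The response was called larger in MMTV-PyMT than in normal ECs for 5 of the 7, against 1.28% of all tested genes. It was called smaller in implanted than in normal ECs for 4 of the 7, against 0.937% of all tested genes. The count of 0 of 6 Gbp members called smaller there is near that share. Between implanted and MMTV-PyMT ECs, 6 of the 7 had a response called smaller in implanted ECs, against 0.629% of all tested genes. The weaker implanted response of 3 of 6 Gbp members is thus not particular to them. Of 11 tested dynamin-like GTPases outside the Gbp family, 2 were called higher in each tissue, the antiviral Mx1 and Mx2, which were named after their values were seen.

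Among genes that link GBPs to inflammasomes, 8 of 9 were tested, and those called higher numbered 1 (normal), 1 (MMTV-PyMT) and 7 (implanted). Of all tested genes, 3.02%, 2.49% and 6.13% were called higher, so implanted ECs had the largest share there too. Casp4, the caspase that senses bacterial lipopolysaccharide in mouse cells, had the largest change in each tissue, with log2 changes of 1.59 ± 0.13, 1.82 ± 0.13 and 2.34 ± 0.13 (SE). Nek7, a partner of NLRP3, was lowest in normal (−0.15 ± 0.10, SE) and implanted ECs (0.39 ± 0.10, SE), and the adaptor Pycard in MMTV-PyMT ECs (−0.05 ± 0.16, SE). The implanted count was 4 when libraries were scaled by total reads. Without implanted cGAMP replicate 2, the library with the highest immune marker sum (355 FPKM), it was 4 as well, and under either change the MMTV-PyMT count was 2 in place of 1. After quantile normalization the normal count was 2 and the implanted count 7. None of the 10 genes of Atg8 conjugation, which recruits GBPs to vacuoles, and none of the 6 genes of protein prenylation, which anchors Gbp2 and Gbp5 in membranes, was called in any tissue (limma with Benjamini-Hochberg adjustment). With an adjusted p-value under 0.05 and no fold limit, the Atg8 list had 4 (normal), 0 (MMTV-PyMT) and 3 genes (implanted), and the prenylation list 2, 0 and 4. Of all tested genes, 31.9% (normal), 12% (MMTV-PyMT) and 39.1% (implanted) passed in the same way.

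Outside the family, the gene whose log2 levels followed the mean of the 6 standardised members most closely over 18 libraries was Gm4951 (Pearson's r 0.996), before the immunity-related GTPase Gm12250 (0.993), Ube2l6 (0.990), Gm4070 (0.989) and Nlrc5 (0.980). Gm4951 was also the nearest gene to Gbp2 (0.996), Gbp4 (0.993), Gbp5 (0.987) and Gbp7 (0.983), while Nlrc5, a regulator of MHC class I genes, was nearest to Gbp3 (0.993). Gbp9 had another nearest gene, Fam126a (0.971), which was at 5.98 ± 0.29 FPKM in PBS-treated and 6.20 ± 0.38 FPKM in cGAMP-treated normal ECs and at 3.07 ± 0.24 and 5.51 ± 1.13 FPKM in MMTV-PyMT ECs (SD, n = 3). With 6 groups of 3 libraries, such values mainly describe the order of the groups, and they were chosen for being the highest of all tested genes.

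All 10 EC markers examined, among them Pecam1 and Cdh5, were listed in every group, with a summed level from 771 to 1874 FPKM per library. Of 11 immune markers 8 were listed, although the sort was for cells without the pan-leukocyte protein CD45. Their sum was 67.8 to 128 FPKM in normal, 87.3 to 140 FPKM in MMTV-PyMT and 113 to 355 FPKM in implanted ECs. The CD45 gene Ptprc was at 0.156 to 0.333 FPKM in the MMTV-PyMT libraries, 0.37 to 9.24 FPKM in the implanted and 0.903 to 9.73 FPKM in the normal libraries. The library with the highest immune sum, implanted cGAMP 2, had the lowest level of its group in all 6 members, and without it 6 of 6 members were still called higher in implanted ECs. In the normal cGAMP group, replicate 1 had the highest immune sum (128 FPKM) and all 6 members above their group means, by 0.13 on average (log2 scale). Replicate 2 of that group, with an immune sum of 94.8 FPKM, lay 0.15 above on average. Mural markers (6 of 6 listed) summed to 801 to 1105 FPKM in normal ECs and 169 to 432 FPKM in tumour ECs. Epithelial markers (6 of 6) summed to 838 to 905 FPKM in PBS-treated and 581 to 819 FPKM in cGAMP-treated MMTV-PyMT ECs, without overlap. In the other libraries they summed to 245 to 533 FPKM. Fibroblast and adipocyte markers (4 of 6, without Adipoq and Plin1) summed to 34.7 to 63.2 FPKM in normal, 83.3 to 134 FPKM in MMTV-PyMT and 182 to 476 FPKM in implanted libraries. The part of these other cell types in the differences between tissues or between treatments was not tested.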

How the data were processed

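ECs (live, CD45-negative, CD31-positive, after CD31 bead enrichment) were sorted and bulk RNA was sequenced in 18 libraries. The deposited values are FPKM per gene, made by the authors; the submitters' processing notes name FastQC, STAR 2.7, HTSeq and the build mm10, and how FPKM was derived was not given in the sources used here. With GENCODE M21 exonic lengths, 98.68% of 16012 genes gave whole reads (within 0.05 read), 9064609 to 12033893 per library, and no value was 0.

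Log2(FPKM + 1) of 13983 genes (FPKM of at least 1 in at least 3 libraries) was fitted with limma 3.58.1 in R 4.3.3, with 1 mean for each of 6 groups and trended empirical Bayes moderation. The 12 comparisons were two-sided, with Benjamini-Hochberg adjustment over all tested genes. Calls needed an adjusted p-value under 0.05 and a 2-fold change. The fit was tested on simulated data, and 29 alternative settings were tried. All members were named, with the genes most correlated to them and, for 3 lists, the highest and lowest change per tissue. Members and lists were chosen with earlier results of these data known. Promoter windows came from RefSeq.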

Additional observations from a re-analysis of the deposited data

Results flagged for a closer look

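In 9 cases the response to cGAMP differed between 2 tissues by a test of the difference itself (limma with Benjamini-Hochberg adjustment, 2-fold limit). Between MMTV-PyMT and normal ECs the log2 difference was 1.563 for Gbp2, 1.371 for Gbp4, 1.688 for Gbp5, 2.081 for Gbp7 and 2.019 for Gbp9, each larger in MMTV-PyMT ECs. Between implanted and normal ECs it was 1.258 for Gbp9, larger in implanted ECs. Between implanted and MMTV-PyMT ECs it was −1.649 for Gbp2, −1.273 for Gbp5 and −1.32 for Gbp7, each smaller in implanted ECs. The comparisons share libraries, so the 9 values are not independent of each other.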

How the results depend on the processing

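Of 2088 values of single members under 29 other settings, 2041 kept their direction and call, 16 changed sign, 8 lost and 23 gained a call, and 340 of 348 counts stayed within 1.5 times. Many of the single-member values could not change sign. Leaving out a library outside the compared groups does not alter a log2 change. Nor do the settings of filter, trend, fold limit, replicate block or fitting only the compared groups. The total of 2041 is therefore not a measure of robustness. Members called for the difference between MMTV-PyMT and normal responses numbered 3 with a pseudocount of 5. Between implanted and normal responses they numbered 0 after quantile normalization or scaling by total reads and 2 with no fold limit. Between implanted and MMTV-PyMT responses they numbered 1 with a pseudocount of 5, 6 after quantile normalization and 3 to 5 with single libraries left out. Between MMTV-PyMT and normal ECs under cGAMP the count was 1 with no fold limit. Sign changes in the implanted minus normal difference were Gbp2 at 0.072, 0.08 and 0.054 (without normal cGAMP replicate 2, implanted PBS replicate 1 or implanted cGAMP replicate 2, in a leave-one-out range from −0.318), Gbp3 at −0.352 (quantile) and −0.173 (total reads), Gbp4 at −0.173 and Gbp5 at −0.22 (both quantile). In the implanted minus MMTV-PyMT difference, Gbp3, Gbp4 and Gbp5 turned to 0.005, 0.008 and 0.073 with a pseudocount of 5. Under cGAMP, MMTV-PyMT against normal turned for Gbp2 to −0.1 (quantile, or without normal cGAMP replicate 3) and −0.024 (total reads), and for Gbp3, Gbp4 and Gbp9 to 0.068, 0.196 and 0.121 (without MMTV-PyMT cGAMP replicate 1). With single libraries left out, the other ends of these 4 ranges were 0.291, −0.318, −0.307 and −0.42. The cause was not tested. Scaling by total reads shifted the median of all genes by up to −0.366. With the replicate block the member counts were 5 (normal), 6 (MMTV-PyMT) and 6 (implanted), and all 12 counts equalled those without it. Deviations of same-numbered libraries from their group means correlated at −0.345 to 0.294, over 0.1 in 8 of 45 cases. Differently numbered libraries were not compared, so whether equal numbers mark a shared experiment was not tested. The runs of the gene lists under other scalings and without implanted cGAMP replicate 2 were chosen after seeing the data.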
